A study of Mus musculus with 44 samples.

Results

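The genes described here are 35 mouse interferon-stimulated genes, measured by RNA sequencing in fibroblasts sorted from control mammary glands and from mammary tumors. They were taken by symbol from a list of genes that interferon is known to induce. The list was chosen with earlier results of these data known, so counts of its members are a description and no independent support. All 35 were found among the 55486 genes of the count table. The level of every one of them was high enough for testing, so that the 35 members were compared with all 16601 genes tested.

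Interferons are secreted proteins that a cell makes after its sensors meet foreign or misplaced nucleic acid. Type I interferons bind the Ifnar receptor, whose kinases activate factors such as STAT2, which with IRF9 switches on genes that carry an interferon-stimulated response element, while interferon gamma acts through the gamma-activated site. The products sense viral RNA, block its translation or replication and feed back on the pathway, and in tumors both the tumor cells and the stromal cells around them, fibroblasts included, can carry such a program.

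Mammary tissue from control donors, WB1P donors (WapCre;Brca1F/F;Trp53F/F) or WB1P-Myc donors (the same alleles with Col1a1invCAG-Myc-IRES-Luc) was transplanted into En1-Cre;mTmG hosts. Fibroblasts were sorted from tumors at end stage or from glands transplanted with control tissue. The sort gave 4 populations by the En1 lineage mark and by CD26, a surface peptidase encoded by Dpp4: En1+, CD26+, En1+ with CD26+, and cells with neither. Here the populations with and without CD26 were summed within each mouse, giving CD26− and CD26+ classes of normal fibroblasts (NFs) and of cancer-associated fibroblasts (CAFs). There were 3 control mice in both classes, 5 WB1P mice for CD26− and 4 for CD26+, and 5 WB1P-Myc mice in both. The tumor models are on an FVB/n background, and the En1-Cre allele was crossed onto FVB/n mTmG mice. In the donors the Wap promoter, which is active in mammary epithelium, drives the Cre that deletes Brca1 and Trp53 and turns on Myc, so that the alleles mark the transplanted epithelium and not the host fibroblasts. The fat pad of the host was not cleared, and its own ducts and fibroblasts remained beside the transplant. Donors and hosts were juvenile at transplantation, and the age at harvest was not given in the sources used here. Titles of the control samples say wildtype, while in the paper the donors of control tissue were Cdh1F/F;PtenF/F animals without WapCre. Each control carries a pair of numbers (82/83, 49/52 and 44/46), counted as 1 mouse here although it may be a pool of 2. WB1P-Myc mice 23 and 69 carry the mark 8x8 in their titles, which the labels do not explain. The methods write an advanced, smaller tumor this way, whereas the paper gives end-stage size for both models. Which of these applies to mice 23 and 69 is not known.

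The table held 44 libraries from 13 mice with 5790599 to 15240328 counts each (median 12818093), added up to 25 sums of 1 mouse and 1 CD26 class. Levels are CPM, counts scaled by library size and composition. Values of several mice are always given in the same order: 82/83, 49/52 and 44/46 for controls, 10, 93, 12, 14 and 35 for WB1P (without mouse 10 in the CD26+ class), and 21, 67, 95, 23 and 69 for WB1P-Myc. Dpp4 followed the sort: its median was 5.96, 6.52 and 6.90 CPM in CD26− cells of control, WB1P and WB1P-Myc mice, against 510.2, 453 and 408 CPM in the CD26+ cells. The 6 fibroblast markers, led by Col1a1, were present in every sum and added up to between 13330 and 34300 CPM.

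The mean log2 CPM of the 35 members was 2.61, 4.01 and 2.50 in CD26− NFs, 4.95, 4.53, 4.92, 4.53 and 4.97 in WB1P CD26− CAFs and 3.36, 3.28, 5.62, 4.95 and 6.33 in WB1P-Myc CD26− CAFs. All 5 WB1P mice lay above every control mouse, whereas WB1P-Myc mice 21 and 67 lay below control mouse 49/52 and the other 3 lay above it. For the CD26+ class the mean log2 CPM was 2.89, 3.99 and 3.29 in NFs, 4.95, 4.43, 4.32 and 4.59 in WB1P CAFs and 3.60, 3.08, 5.54, 4.40 and 6.89 in WB1P-Myc CAFs. The same pattern held, with 4 of 4 WB1P mice and 3 of 5 WB1P-Myc mice above every NF. The group means ± SD were 3.04 ± 0.85 (n = 3), 4.78 ± 0.23 (n = 5) and 4.71 ± 1.36 (n = 5) in the CD26− class, and 3.39 ± 0.55 (n = 3), 4.57 ± 0.27 (n = 4) and 4.70 ± 1.53 (n = 5) in the CD26+ class. The WB1P-Myc and WB1P means were thus close, but the WB1P-Myc mice were spread over 3.05 and 3.80 log2 units and the WB1P mice over 0.44 and 0.63. CAF means exceeded NF means by 1.74 (WB1P) and 1.67 (WB1P-Myc) log2 units in the CD26− class and by 1.18 and 1.31 in the CD26+ class, and no p was computed for this score. Without mouse 69 the WB1P-Myc CD26+ difference was 0.77, and without both mice marked 8x8 the WB1P-Myc differences were 1.05 (CD26−) and 0.68 (CD26+). In sorted bulk cells, more cells that express these genes and more RNA per cell cannot be told apart.

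**Figure D1:**
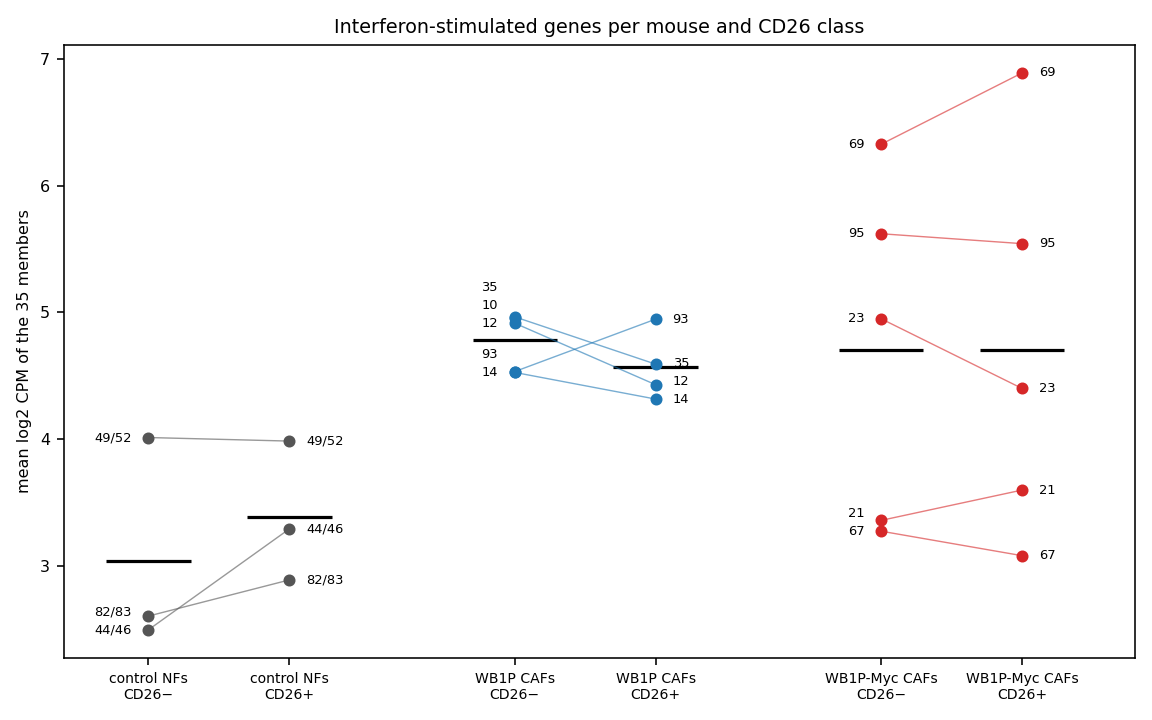
Mean log2 CPM of the 35 members (vertical axis) in each mouse (points, labelled with the mouse number), by tumor model and CD26 class; lines join the classes of a mouse and black bars are group means. WB1P CAFs lie between 4.32 and 4.97, above all controls, and WB1P-Myc CAFs spread from 3.08 to 6.89.

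Tested gene by gene with edgeR's quasi-likelihood test, with the false discovery rate (FDR) computed over all 16601 genes, members were higher in CAFs and in no case lower. In WB1P CD26− CAFs 14 of 35 members were higher than in CD26− NFs at an FDR under 0.05 (17.6% of all genes were), and 0 were lower (17.8% of all genes), with a median log2 fold change of 1.54 over the members and 0.00 over all genes. Among WB1P-Myc CD26− CAFs the count was 17 higher (19.1% of all genes) and 0 lower (17.5%), with medians of 1.93 and 0.02. In WB1P CD26+ CAFs 8 of 35 were higher (17.4%) and 0 lower (16.1%), with medians of 1.17 and 0.00. Here the share of members called is near that of all genes, so the count by itself sets the members little apart. For WB1P-Myc CD26+ CAFs 18 were higher (17.4%) and 0 lower (17.3%), with medians of 1.93 and −0.01. Comparisons within a class share their control mice, so their calls are not independent. At an unadjusted p under 0.05, 18, 20, 12 and 21 members passed in the same order, beside 45.4%, 46.8%, 44.6% and 45.6% of all genes. For WB1P CD26+ CAFs that is a smaller share of the members than of all genes. DESeq2 called 17, 19, 11 and 21 members higher (19.5%, 20.6%, 18.9% and 18.2% of all genes) and 0 lower (19.6%, 19.7%, 18.2% and 20.1%).

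Most of these changes were large. Members higher by a log2 fold change over 2 with an FDR under 0.05 numbered 14 in WB1P CD26− CAFs (6.63% of all genes), 14 in WB1P-Myc CD26− CAFs (6.87%), 8 in WB1P CD26+ CAFs (4.50%) and 17 in WB1P-Myc CD26+ CAFs (3.80%). Counted without a test, every WB1P CD26− sum exceeded every CD26− NF sum for 21 of 35 members (19.1% of all genes), and the CD26+ sums did so for 19 (17.7%). In the more spread WB1P-Myc mice this held for 8 members in the CD26− class (18.5%) and for 3 in the CD26+ class (18.2%), a share not above that of all genes in the latter.

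The number of calls changed when single mice were left out. Without control 82/83 the 4 counts of higher members were 4, 8, 0 and 5 (WB1P CD26−, WB1P-Myc CD26−, WB1P CD26+ and WB1P-Myc CD26+), beside 15.5%, 15.8%, 15.7% and 15.3% of all genes. Without control 44/46 they were 3, 7, 0 and 5 (12.7%, 13.2%, 10.8% and 11.4% of all genes), so that in these fits the share of members fell more than that of all genes. For WB1P CD26+ the count was also 4 without control 49/52 (12.7% of all genes) and 5, 2, 2, 4 and 4 without WB1P mice 10, 93, 12, 14 and 35 (between 12.5% and 18.1%). It was 5 without WB1P-Myc mouse 95 or 23 (17.6% and 16.4%). WB1P-Myc CD26+ gave 11 without mouse 69 (15.9% of all genes), and both mice marked 8x8 left out gave 11 in the CD26− class (14.3%) and 6 in the CD26+ class (13.2%). Because all 25 sums share 1 estimate of spread per gene, the scatter of the WB1P-Myc mice also enters the WB1P tests. With only the groups compared in the fit, WB1P CD26+ gave 18 (10.0% of all genes) and WB1P-Myc CD26+ gave 9 (17.3%). A single member was lower in WB1P CD26− CAFs without control 82/83 and in WB1P CD26+ CAFs without control 82/83, WB1P 35, WB1P-Myc 69 or both mice marked 8x8 (1 in each).

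Most members were highest in the same mouse among WB1P-Myc CAFs and among NFs, and less so among WB1P CAFs. Among WB1P-Myc CAFs, mouse 69 had the highest level of 34 members in the CD26− class and of 33 in the CD26+ class, and mouse 67 the lowest of 20 and 28. Among NFs, mouse 49/52 was highest for 35 members in CD26− and 32 in CD26+ cells. Among WB1P CAFs, the highest level fell to 14, 2, 6, 1 and 12 members in the CD26− class and to 21, 6, 0 and 8 in the CD26+ class. The median ratio of highest to lowest mouse over the members was 3.27 and 2.27 in CD26− and CD26+ NFs, 1.72 and 1.99 in WB1P CAFs, and 8.84 and 12.8 in WB1P-Myc CAFs. It reached 80.9 for Oas3 in WB1P-Myc CD26− CAFs and 238.5 for Mx1 in WB1P-Myc CD26+ CAFs, whereas Irf9 varied least in both (2.34 and 2.80). Of the 35 members, 25, 21, 25, 21 and 23 were above every NF in WB1P CD26− CAFs and 29, 21, 21 and 24 in WB1P CD26+ CAFs. In WB1P-Myc CAFs the numbers were 10, 8, 28, 23 and 30 for CD26− and 13, 3, 30, 21 and 34 for CD26+, so that mice 21 and 67 were close to controls and mice 95, 23 and 69 were not. Of all 16601 genes, between 33.4% and 38.4% were above every NF in each of these sums.

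**Figure D2:**
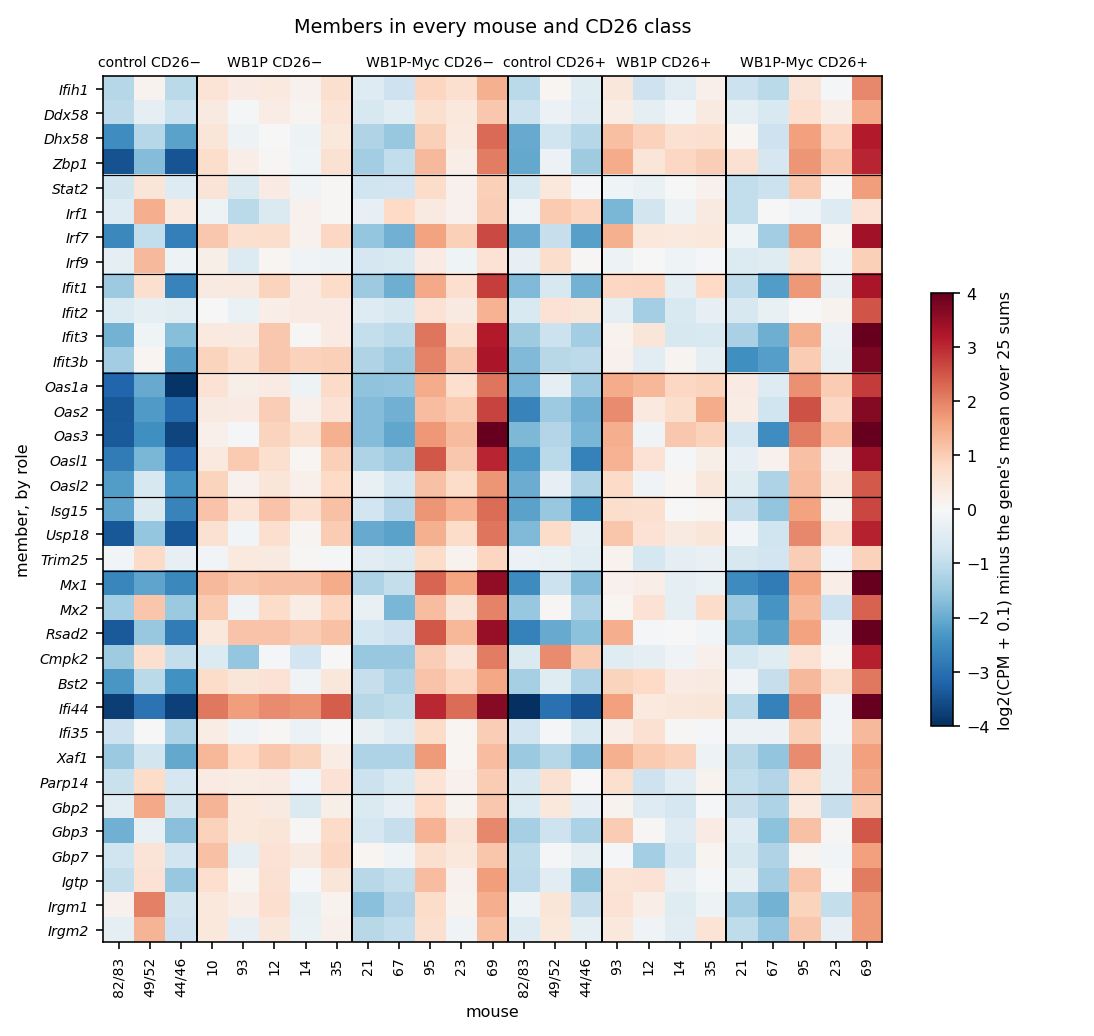
Level of each member (by role, vertical axis) in each mouse (horizontal axis, by group), as log2(CPM + 0.1) minus the mean of the gene over the 25 sums (color). Among NFs mouse 49/52 is the highest column, and WB1P-Myc mice 21 and 67 are pale to blue while mouse 69 is deep red for most members.

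Of 4 sensors, Ifih1 (MDA5) and Ddx58 (RIG-I) recognize cytosolic double-stranded RNA, Dhx58 (LGP2) modulates them, and Zbp1 binds nucleic acid in the Z conformation and can start necroptosis. Zbp1 was at 2.64, 9.12 and 2.71 CPM in CD26− NFs, 50.1, 36.8, 31.8, 26.9 and 46.5 CPM in WB1P CD26− CAFs and 11.6, 15.3, 74.7, 36.8 and 127 CPM in WB1P-Myc CD26− CAFs. All 10 tumor mice were above all 3 controls. CD26+ levels were 7.36, 26.0 and 11.4 CPM in NFs, 84.9, 42.9, 54.0 and 60.2 CPM in WB1P CAFs and 46.4, 19.1, 103, 65.5 and 254 CPM in WB1P-Myc CAFs, where only mouse 67 fell within the NF range. The log2 fold change of Zbp1 was 2.99 ± 0.81 (SE) in WB1P CD26− CAFs (edgeR FDR 0.00638), 3.46 ± 0.83 in WB1P-Myc CD26− CAFs (FDR 0.00275), 2.02 ± 0.78 in WB1P CD26+ CAFs (FDR 0.0485) and 2.71 ± 0.79 in WB1P-Myc CD26+ CAFs (FDR 0.0113). Ddx58 differed less: it was at 25.6, 40.2 and 29.2 CPM in CD26− NFs, 67.6, 51.5, 64.4, 56.8 and 76.7 CPM in WB1P and 34.0, 38.4, 82.1, 70.7 and 113 CPM in WB1P-Myc CD26− CAFs, and at 29.3, 45.4 and 37.1, at 64.8, 40.4, 48.6 and 67.6 and at 40.6, 35.0, 85.2, 64.1 and 152 CPM in the CD26+ groups. Every WB1P CD26− value lay above the controls, and the other tumor groups overlapped them. It passed the test in WB1P-Myc CD26− CAFs (1.09 ± 0.40, FDR 0.0368) and not in the other 3 comparisons (FDR 0.0548, 0.287 and 0.0527). Dhx58 passed in 3 comparisons and Ifih1 in 0. The Dhx58 call in WB1P CD26+ CAFs was lost without control 82/83 or control 44/46.

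Over 19 other settings the FDR of Zbp1 stayed under 0.05 in both CD26− comparisons. For Zbp1 in WB1P CD26+ CAFs it ran from 0.00131 to 0.159, and the call was lost without a low-count filter and without control 82/83 (0.159), control 44/46 (0.156), WB1P 10 (0.0527), WB1P 93 (0.0999), WB1P 12 (0.0722), WB1P 14 (0.0707), WB1P 35 (0.0779), WB1P-Myc 95 (0.0595) or WB1P-Myc 23 (0.0612). In WB1P-Myc CD26+ CAFs the Zbp1 call was lost without control 82/83 (0.0562) or control 44/46 (0.0590), with a range of 3.5e-05 to 0.0590. The Ddx58 call was lost with only the groups compared in the fit and without the mice marked 8x8 (0.133), control 82/83 (0.132), control 44/46 (0.123), WB1P-Myc 95 (0.0721) or WB1P-Myc 23 (0.0640), with a range of 0.000682 to 0.133. Without the mice marked 8x8 its log2 fold change was 0.70. Those of Zbp1 without control 49/52 were 3.86, 4.33, 2.69 and 3.38 in the order above. In WB1P-Myc CAFs they were 2.84 (CD26−) and 1.97 (CD26+) without mouse 69, and 2.81 and 1.92 without both mice marked 8x8.

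Of the 4 transcription factors, only Irf7 was called against NFs. Irf7, which amplifies the type I response by inducing interferon alpha genes, was at 9.24, 28.4 and 8.28 CPM in CD26− NFs, 117, 87.9, 91.8, 63.6 and 98.2 CPM in WB1P and 19.1, 14.5, 169.9, 108 and 348 CPM in WB1P-Myc CD26− CAFs. WB1P values were all above the controls, while mice 21 and 67 lay inside the control range and mice 95, 23 and 69 far above it. In CD26+ cells Irf7 was at 13.6, 29.3 and 12.4 CPM in NFs, 151, 75.5, 73.9 and 74.3 CPM in WB1P and 49.1, 21.4, 183, 59.4 and 572 CPM in WB1P-Myc CAFs, with only mouse 67 among the controls. Its log2 fold change was 2.58 ± 0.97 in WB1P CD26− CAFs (edgeR FDR 0.0421), 3.11 ± 1.00 in WB1P-Myc CD26− CAFs (FDR 0.0187) and 3.26 ± 1.01 in WB1P-Myc CD26+ CAFs (FDR 0.0158), and the WB1P CD26+ value of 2.35 ± 0.98 did not pass (FDR 0.0671). Irf1, an early factor of the interferon gamma response, was at 138, 538 and 255 CPM in CD26− NFs and 171, 93.3, 131, 222 and 201 CPM in WB1P CD26− CAFs, and at 175, 401 and 356 and 55.0, 118, 171 and 252 CPM in the CD26+ groups. No WB1P mouse exceeded all controls, and 2 of 5 and 3 of 4 lay below all of them. The log2 fold changes of −0.92 ± 0.44 and −1.06 ± 0.47 had FDRs of 0.109 and 0.0838. In WB1P-Myc CAFs Irf1 was at 156, 339, 252, 223 and 385 CPM (CD26−) and 99.7, 196, 178, 136 and 295 CPM (CD26+), overlapping the controls. Stat2 and Irf9, which act together in the type I response, had no FDR under 0.05 in any of the 4 comparisons.

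Irf7 calls were lost in 8, 4 and 3 of 19 settings. In WB1P CD26− CAFs the call was lost without control 82/83 (0.139), control 44/46 (0.156), WB1P 10 (0.0611), WB1P 93 (0.0558), WB1P 12 (0.0626), WB1P 14 (0.0531), WB1P 35 (0.0691) or WB1P-Myc 95 (0.0521), over a range of 0.00144 to 0.156. In WB1P-Myc CD26− CAFs it was lost with only the groups compared and without the mice marked 8x8 (0.0605), control 82/83 (0.0801) or control 44/46 (0.0904), over a range of 0.000168 to 0.0904, and in WB1P-Myc CD26+ CAFs without the mice marked 8x8 (0.0552), control 82/83 (0.0643) or control 44/46 (0.0767), over 9.61e-05 to 0.0767. Without mouse 69 the log2 fold change of Irf7 in WB1P-Myc CAFs was 2.35 (CD26−) and 2.08 (CD26+, FDR 0.0422), and without both mice marked 8x8 the CD26− value was 2.15. Without control 49/52 it was 3.41 in WB1P and 3.93 in WB1P-Myc CD26− CAFs. Irf1 became a lower call in WB1P CD26− CAFs without control 82/83 (0.0366) and in WB1P CD26+ CAFs without control 82/83 (0.0375) or WB1P 35 (0.0332), and also with single libraries as samples, over ranges of 0.0143 to 0.745 and 0.0140 to 0.221. Without control 49/52 its log2 fold change in WB1P CD26− CAFs was −0.24 (FDR 0.745).

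Ifit proteins bind viral RNA ends and hinder translation. Ifit1 was at 7.68, 33.8 and 3.24 CPM in CD26− NFs, 27.5, 27.4, 39.8, 27.2 and 36.1 CPM in WB1P and 7.76, 5.48, 61.0, 33.8 and 147 CPM in WB1P-Myc CD26− CAFs. Control 49/52 alone reached the WB1P level, so that the groups overlapped. CD26+ cells had 6.26, 13.7 and 5.70 CPM in NFs, 38.3, 39.1, 16.3 and 37.3 CPM in WB1P and 10.5, 4.52, 72.2, 17.5 and 206 CPM in WB1P-Myc CAFs. All 4 WB1P mice were above the controls, as were mice 95, 23 and 69. Ifit3 was at 1.49, 5.15 and 1.72 CPM in CD26− NFs, 7.59, 7.50, 12.3, 5.92 and 7.28 CPM in WB1P and 2.96, 2.67, 25.9, 9.05 and 53.4 CPM in WB1P-Myc CD26− CAFs, and at 2.10, 3.13 and 2.16, at 6.37, 8.14, 3.65 and 3.73 and at 2.29, 1.41, 15.5, 4.88 and 92.7 CPM in the CD26+ groups. The WB1P groups did not overlap their controls, and in WB1P-Myc CAFs mouse 69 was far above the rest. Both genes passed in WB1P-Myc CD26+ CAFs and in no other comparison, with log2 fold changes of 2.86 ± 1.11 (edgeR FDR 0.0486) and 3.25 ± 1.15 (FDR 0.0328). Of the 4 Ifit genes 3 were called there and 0 in each of the other comparisons. The tests of whether the WB1P-Myc effect differed between the CD26 classes had FDRs of 0.928 and 0.987. The Ifit1 call was lost in 14 of 19 settings, among them DESeq2 size factors, no low-count filter, only the groups compared, and without the mice marked 8x8 (0.174), control 82/83 (0.138), control 49/52 (0.0639), control 44/46 (0.145), WB1P 10 (0.0538), WB1P 93 (0.0606), WB1P 12 (0.0628), WB1P 14 (0.0598), WB1P 35 (0.0649), WB1P-Myc 95 (0.0736) or WB1P-Myc 69 (0.161), over a range of 0.00146 to 0.174. The Ifit3 call was lost with only the groups compared and without the mice marked 8x8 (0.229), control 82/83 (0.0981), control 49/52 (0.0767), control 44/46 (0.113) or WB1P-Myc 69 (0.200), over 0.000486 to 0.229. Without mouse 69 alone the log2 fold changes were 1.61 for Ifit1 and 1.28 for Ifit3, and without both mice marked 8x8 they were 1.76 and 1.37.

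By median log2 fold change the OAS family was the role with the largest changes. Oas1a, Oas2 and Oas3 make the oligoadenylates that activate RNase L, and the OAS-like Oasl1 and Oasl2 do so weakly or not at all and act on the response in other ways. All 5 genes were higher in WB1P CD26− CAFs (median log2 fold change 3.31), in WB1P-Myc CD26− CAFs (4.10) and in WB1P-Myc CD26+ CAFs (3.63), and 3 of 5 in WB1P CD26+ CAFs (2.57). The 3 calls in WB1P CD26+ CAFs were lost without control 82/83 or control 44/46. Oas3 was at 0.145, 0.365 and 0.0993 CPM in CD26− NFs, 2.79, 2.37, 4.55, 3.73 and 6.65 CPM in WB1P and 0.665, 0.495, 8.32, 5.92 and 40.0 CPM in WB1P-Myc CD26− CAFs. Every tumor value exceeded every control value. In the CD26+ class it was at 0.634, 1.02 and 0.611 CPM in NFs, 6.82, 2.17, 5.18 and 4.66 CPM in WB1P and 1.50, 0.353, 10.6, 5.75 and 59.3 CPM in WB1P-Myc CAFs, with mouse 67 alone below the controls. The log2 fold change of Oas3 was 4.29 ± 1.49 (edgeR FDR 0.0289), 5.75 ± 1.56 (FDR 0.00657) and 4.36 ± 1.38 (FDR 0.0183) in WB1P CD26−, WB1P-Myc CD26− and WB1P-Myc CD26+ CAFs, and 2.67 ± 1.32 (FDR 0.120) in WB1P CD26+ CAFs. Oasl2, the most abundant of the family in CPM per kb of transcript, was at 12.7, 38.0 and 11.6 CPM in CD26− NFs, 109, 66.8, 83.1, 68.4 and 103 CPM in WB1P and 48.5, 36.4, 134, 99.2 and 200.3 CPM in WB1P-Myc CD26− CAFs. Only mouse 67 of the WB1P-Myc group reached down to a control, 49/52. Its CD26+ levels were 14.9, 47.6 and 25.8 CPM in NFs, 101, 54.1, 63.2 and 80.9 CPM in WB1P and 42.3, 25.4, 141, 77.4 and 325 CPM in WB1P-Myc CAFs, where mice 21 and 67 overlapped the controls. Oasl2 was higher by 2.05 ± 0.68 (FDR 0.0233), 2.32 ± 0.69 (FDR 0.0125) and 2.06 ± 0.68 (FDR 0.0241) in the same 3 comparisons, with an FDR of 0.128 in WB1P CD26+ CAFs.

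Calls of Oas3 in WB1P-Myc CD26− CAFs held in all 19 other settings. Its call in WB1P CD26− CAFs was lost without control 82/83 (0.0953), control 49/52 (0.0698), control 44/46 (0.113) or WB1P 35 (0.0577) (range 0.000796 to 0.113), and in WB1P-Myc CD26+ CAFs with only the groups compared and without the mice marked 8x8 (0.0774), control 82/83 (0.0677), control 49/52 (0.0567) or control 44/46 (0.0800) (range 0.000127 to 0.0800). Oasl2 lost its call without control 82/83 (0.0924) or control 44/46 (0.117) in WB1P CD26− CAFs (range 0.000468 to 0.117), without control 82/83 (0.0595) or control 44/46 (0.0766) in WB1P-Myc CD26− CAFs (range 8.97e-05 to 0.0766), and in WB1P-Myc CD26+ CAFs with only the groups compared and without the mice marked 8x8 (0.131), control 82/83 (0.103), control 44/46 (0.0900) or WB1P-Myc 69 (0.0808) (range 0.000294 to 0.131). In WB1P-Myc CD26+ CAFs the log2 fold changes without mouse 69 were 2.58 for Oas3 (FDR 0.0411) and 1.28 for Oasl2, and without both mice marked 8x8 2.44 and 1.24. The largest fold change of Oas3, in WB1P-Myc CD26− CAFs, was 4.21 without mouse 69 and 3.91 without both mice marked 8x8. Without control 49/52 the CD26− values were 5.01 (WB1P) and 6.47 (WB1P-Myc) for Oas3 and 2.84 and 3.11 for Oasl2.

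Isg15 encodes a ubiquitin-like modifier, Usp18 the protease that removes it and that also damps Ifnar signaling, and Trim25 a ubiquitin ligase that assists RIG-I. Usp18 was at 1.23, 4.71 and 1.23 CPM in CD26− NFs, 20.9, 12.8, 22.1, 14.9 and 28.0 CPM in WB1P and 3.33, 3.03, 37.1, 22.9 and 61.1 CPM in WB1P-Myc CD26− CAFs. The WB1P mice were all above the controls, and mice 21 and 67 were within their range. In CD26+ cells, where NFs already had 3.96, 22.9 and 10.5 CPM, WB1P CAFs had 30.1, 20.8, 17.9 and 19.5 CPM and WB1P-Myc CAFs 12.9, 7.85, 53.1, 22.0 and 118 CPM, so that 1 of 4 and 2 of 5 tumors were above every control. Usp18 was higher in WB1P CD26− CAFs (3.05 ± 0.97, edgeR FDR 0.0177) and WB1P-Myc CD26− CAFs (3.42 ± 0.99, FDR 0.00985) and had FDRs of 0.491 and 0.120 in the CD26+ comparisons. The tests of the difference between classes had FDRs of 0.464 for WB1P and 0.795 for WB1P-Myc, in the fit without a mouse term. With the mouse as a block, chosen for this test after the data were seen, the difference passed for WB1P (−2.15 ± 0.50, FDR 0.0274) and not for WB1P-Myc (−1.50 ± 0.48, FDR 0.118). It was lost without control 49/52 (0.0907), control 44/46 (0.129), WB1P 12 (0.0640), WB1P 14 (0.0620) or WB1P 35 (0.0632). Trim25 was at 71.4, 130.0 and 61.8 CPM in CD26− NFs, 71.4, 101, 97.7, 78.9 and 72.5 CPM in WB1P and 56.5, 53.0, 129, 85.5 and 140.4 CPM in WB1P-Myc CD26− CAFs, and at 65.5, 64.1 and 57.8, at 85.2, 47.6, 59.0 and 63.2 and at 49.4, 45.0, 154, 71.5 and 146 CPM in the CD26+ groups. Its groups overlapped everywhere, and it had no FDR under 0.05 in the 4 comparisons. Isg15 was higher in all 4, and its WB1P CD26+ call was lost without control 82/83 or control 44/46. The Usp18 calls were lost without control 82/83 (0.0682) or control 44/46 (0.0900) in WB1P and without control 44/46 (0.0606) in WB1P-Myc, over ranges of 0.000253 to 0.0900 and 5.96e-05 to 0.0606 in 19 settings. Its CD26− log2 fold changes were 4.02 (WB1P) and 4.39 (WB1P-Myc) without control 49/52, and in WB1P-Myc CAFs 2.79 without mouse 69 and 2.59 without both mice marked 8x8.

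Among 9 other antiviral effectors, Ifi44, an interferon-induced protein of the cytoplasm, had the largest fold changes of all members. It was at 0.290, 0.584 and 0.298 CPM in CD26− NFs, 22.9, 16.6, 19.7, 18.2 and 28.3 CPM in WB1P and 2.37, 2.54, 43.1, 24.6 and 65.5 CPM in WB1P-Myc CD26− CAFs. CD26+ levels were 0.0792, 0.566 and 0.386 CPM in NFs, 16.4, 6.88, 7.11 and 7.34 CPM in WB1P and 2.43, 0.707, 19.9, 4.79 and 92.2 CPM in WB1P-Myc CAFs. All CAF values were above all NF values in both classes, mice 21 and 67 included. The log2 fold changes were 5.74 ± 1.43 (edgeR FDR 0.00351) and 6.13 ± 1.45 (FDR 0.00255) in the CD26− class and 4.75 ± 1.42 (FDR 0.0138) and 6.09 ± 1.46 (FDR 0.00335) in the CD26+ class for WB1P and WB1P-Myc. Only the WB1P CD26+ call was lost in any setting, without control 82/83 (0.0585) or control 44/46 (0.0599), over a range of 0.000168 to 0.0599. In WB1P-Myc CAFs the log2 fold changes of Ifi44 were 5.52 (CD26−) and 4.29 (CD26+) without mouse 69, and 5.34 and 4.43 without both mice marked 8x8. Bst2 (tetherin), which holds budding virions at the cell surface, was at 11.1, 26.6 and 10.4 CPM in CD26− NFs, 93.1, 77.8, 83.7, 51.2 and 76.6 CPM in WB1P and 29.4, 23.5, 124, 101 and 163 CPM in WB1P-Myc CD26− CAFs. Mouse 67 alone overlapped the controls. In the CD26+ class it was at 22.0, 39.8 and 23.7 CPM in NFs, 105, 97.2, 70.2 and 71.6 CPM in WB1P and 50.6, 29.2, 137, 87.4 and 240.0 CPM in WB1P-Myc CAFs, again with mouse 67 among the controls. Bst2 was higher by 2.25 ± 0.62 (FDR 0.00752) and 2.46 ± 0.63 (FDR 0.00453) in CD26− CAFs and by 1.93 ± 0.61 (FDR 0.0184) in WB1P-Myc CD26+ CAFs, and had an FDR of 0.0512 in WB1P CD26+ CAFs. It lost its call without control 44/46 (0.0516) in WB1P CD26− CAFs (range 3.36e-05 to 0.0516) and without the mice marked 8x8 (0.0882), control 82/83 (0.0745) or control 44/46 (0.0790) in WB1P-Myc CD26+ CAFs (range 0.000147 to 0.0882). Its log2 fold change was 1.34 in the latter without the mice marked 8x8, and 2.85 (WB1P) and 3.06 (WB1P-Myc) in CD26− CAFs without control 49/52. Of the rest, Xaf1, a binder of the apoptosis inhibitor XIAP, was higher in 4 comparisons, Mx1, a dynamin-like GTPase, and Rsad2 (viperin), which makes a chain-terminating nucleotide, in 3, and Mx2, Cmpk2, Ifi35 and Parp14 in 0. The WB1P CD26+ call of Xaf1 was lost without control 82/83 or control 44/46.

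**Figure D3:**
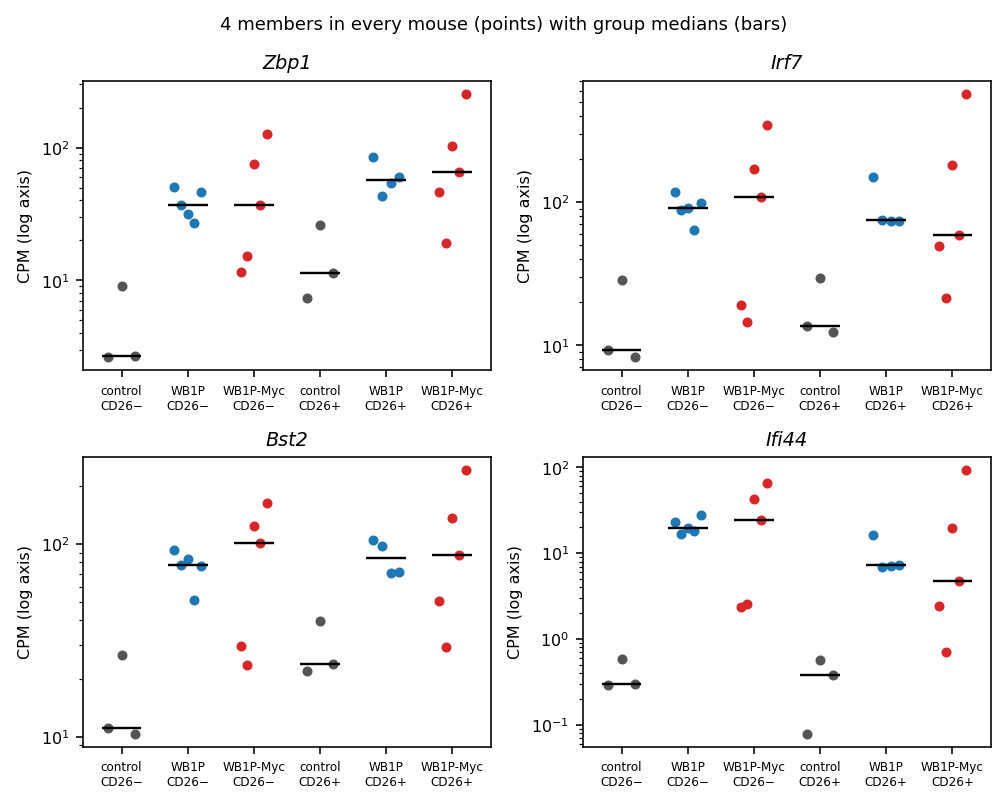
CPM (vertical log axes) of Zbp1, Irf7, Bst2 and Ifi44 in every mouse (points) of the 6 groups (horizontal axis), with group medians (bars). Ifi44 CAF values all lie above the NF values, from 0.707 CPM upward against at most 0.584 CPM.

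Interferon-inducible GTPases, the guanylate-binding proteins Gbp2, Gbp3 and Gbp7 and the immunity-related Igtp, Irgm1 and Irgm2, act on the membranes around intracellular pathogens and answer strongly to interferon gamma. Gbp2 was at 73.0, 284 and 59.4 CPM in CD26− NFs, 252, 133, 127, 66.7 and 117 CPM in WB1P and 67.0, 78.3, 171, 109 and 207 CPM in WB1P-Myc CD26− CAFs, and at 68.0, 132 and 78.5, at 109, 69.5, 61.6 and 95.0 and at 52.3, 41.8, 131, 52.5 and 202 CPM in the CD26+ groups. Control 49/52 had the highest CD26− value of all, and no comparison of Gbp2 had an FDR under 0.05. Gbp3 was at 7.17, 22.1 and 8.51 CPM in CD26− NFs, 52.4, 36.8, 37.8, 28.3 and 46.3 CPM in WB1P and 17.0, 14.5, 71.5, 39.4 and 105 CPM in WB1P-Myc CD26− CAFs. The WB1P mice were all above the controls, and mice 21 and 67 were within their range. CD26+ cells had 10.7, 15.4 and 11.4 CPM in NFs, 55.3, 28.1, 18.9 and 34.0 CPM in WB1P and 19.3, 8.77, 61.5, 28.4 and 152 CPM in WB1P-Myc CAFs, with mouse 67 below the controls and the other tumors above them. Gbp3 was higher by 1.97 ± 0.73 (edgeR FDR 0.0392) and 2.11 ± 0.74 (FDR 0.0311) in WB1P-Myc CAFs, with FDRs of 0.0741 and 0.133 in WB1P CAFs. It was the only GTPase called in any of the 4 comparisons. The CD26− call was lost with only the groups compared and without the mice marked 8x8 (0.104), control 82/83 (0.149), control 44/46 (0.150), WB1P 12 (0.0517), WB1P 35 (0.0531), WB1P-Myc 95 (0.0780) or WB1P-Myc 69 (0.0547), over a range of 0.00101 to 0.150. The CD26+ call was lost with only the groups compared and without the mice marked 8x8 (0.152), control 82/83 (0.0942), control 49/52 (0.0611), control 44/46 (0.105) or WB1P-Myc 69 (0.109), over 0.000420 to 0.152. Here the log2 fold change of Gbp3 was 1.24 without mouse 69 and 1.25 without both mice marked 8x8, and in CD26− CAFs it was 2.67 without control 49/52.

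Over the 4 comparisons, 7 members were called higher in all (Zbp1, Oas1a, Oas2, Oasl1, Isg15, Ifi44 and Xaf1), 7 in 3, 2 in 2, 4 in 1 and 15 in 0. Without control 82/83 or control 44/46, 0 members were called higher in WB1P CD26+ CAFs, and thus 0 in all 4. Of all 16601 genes 8.06%, 4.73%, 8.79%, 7.49% and 70.9% were called higher in 4, 3, 2, 1 and 0, and such repeats are expected where comparisons share their controls. By role, the OAS family held 5 genes with calls out of 5, and the interferon-inducible GTPases 1 out of 6. As mean log2 CPM, the OAS family differed by 3.22 and 3.19 between CD26− CAFs and NFs (WB1P and WB1P-Myc) and by 2.39 and 2.56 in the CD26+ class, while the GTPases differed by 0.62, 0.46, 0.49 and 0.51 and the transcription factors by 0.49, 0.59, 0.24 and 0.46. By the OAS mean 5 of 5 WB1P and 5 of 5 WB1P-Myc CD26− mice and 4 of 4 WB1P and 4 of 5 WB1P-Myc CD26+ mice were above every NF. In the same order this held for 0, 1, 2 and 2 mice by the mean of the GTPases and for 0, 2, 0 and 2 by that of the transcription factors.

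**Figure D4:**
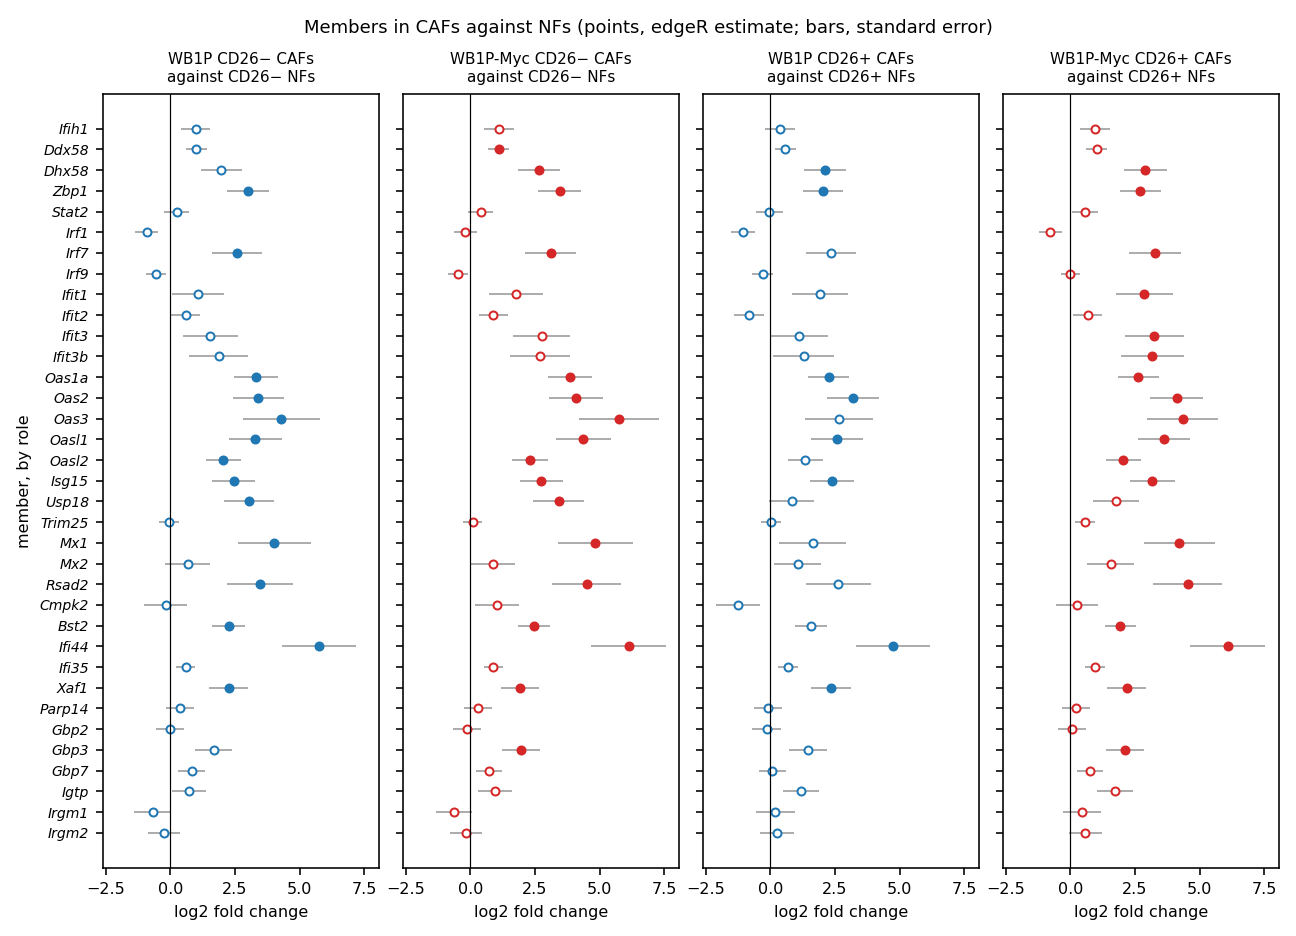
Log2 fold change of each member (horizontal axis) with its standard error (bars) in the 4 comparisons of CAFs with NFs, by role (vertical axis); filled points have an edgeR FDR under 0.05. Ifi44 lies farthest to the right in each comparison, and most GTPases and transcription factors lie near 0. Of the OAS family, Oasl2 (2.05 in WB1P CD26− CAFs) lies left of Zbp1 (2.99) and Usp18 (3.05).

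WB1P-Myc CAFs were then set against WB1P CAFs, to ask whether Myc in the epithelium goes with another level of the response. No member had an FDR under 0.05, higher or lower, in the CD26− class (0.205% and 0.307% of all genes were higher and lower) or in the CD26+ class (0% and 0%). By edgeR 0 and 3 members had an unadjusted p under 0.05 (14.5% and 3.89% of all genes), and DESeq2 called 0 in both (2.48% and 0.0542%). The median log2 fold change of the members was 0.29 against 0.03 over all genes for CD26− and 0.69 against −0.01 for CD26+. The difference in list mean was −0.07 and 0.13, ran from −0.48 to 0.29 and from −0.42 to 0.54 as single mice were left out, was −0.69 and −0.50 without both mice marked 8x8, and is small beside the spread of the WB1P-Myc mice.

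Between the CD26 classes the members did not pass the test in the fit without a mouse term. Here 0 of 35 were higher or lower in CD26+ than CD26− NFs (2.67% and 1.49% of all genes), WB1P CAFs (13.0% and 13.0%) or WB1P-Myc CAFs (9.29% and 10.7%), with 2, 1 and 0 at an unadjusted p under 0.05 in edgeR (14.1%, 37.4% and 31.8% of all genes) and 0 by DESeq2 in each (6.00%, 28.4% and 22.8%). The list mean of CD26+ cells minus that of CD26− cells of the same mouse lay between −0.55 (mouse 23) and 0.80 (control 44/46), was above 0 in 5 of 12 mice and had a median of −0.05. In this fit no member had an FDR under 0.05 for a difference of the WB1P or of the WB1P-Myc effect between the classes (1.86% and 1.16% of all genes), and no member had an FDR under 0.05 for a difference of the CD26 effect between the models (0% of all genes). In these 3 tests 0 members had an unadjusted p under 0.05 (13.5%, 9.70% and 3.31% of all genes) and DESeq2 called 0 (3.89%, 2.49% and 0.0120%).

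With the mouse as a block, which removes the large differences between mice, the paired comparison of classes over 16567 genes did give calls. In NFs 6 members were higher in CD26+ cells (5.73% of all genes) and 0 lower (5.85%). Among WB1P CAFs 3 were higher (17.3%) and 5 lower (17.9%), and among WB1P-Myc CAFs 5 were higher (15.2%) and 2 lower (17.0%). Shares of members in both tumor models thus lay near or below those of all genes. Zbp1 and Oas1a were higher in CD26+ cells in all 3 groups of mice. For Zbp1 the paired log2 fold change was 1.68 ± 0.28, FDR 0.00171 in NFs, 0.76 ± 0.22, FDR 0.0179 in WB1P and 0.91 ± 0.20, FDR 0.00385 in WB1P-Myc CAFs, and for Oas1a it was 1.89 ± 0.35, FDR 0.00315, then 0.86 ± 0.25, FDR 0.0169, and 0.81 ± 0.23, FDR 0.0153. Zbp1 was higher in the CD26+ than in the CD26− cells of each of the 12 mice. Usp18 was higher in CD26+ NFs (2.37 ± 0.40, FDR 0.00182) and WB1P-Myc CAFs (0.87 ± 0.28, FDR 0.0289), Dhx58 in WB1P (0.83 ± 0.18, FDR 0.00348) and WB1P-Myc CAFs (0.81 ± 0.17, FDR 0.00221), Oas2 in WB1P-Myc CAFs (1.02 ± 0.29, FDR 0.0173), and Bst2, Cmpk2 and Oas3 in NFs alone. Lower in CD26+ cells were Mx1 (−1.35 ± 0.37, FDR 0.0122), Ifi44 (−1.20 ± 0.41, FDR 0.0357), Ifit2, Ifit3b and Trim25 in WB1P CAFs and Irf1 (−0.61 ± 0.15, FDR 0.00780) and Gbp2 in WB1P-Myc CAFs. With each mouse left out of the paired fit in turn, the calls of Zbp1, Oas1a and Usp18 in NFs, of Dhx58 in both tumor models, and of Zbp1 and Irf1 in WB1P-Myc CAFs held.

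The other paired calls did not all hold. In NFs Oas3 lost its call without control 82/83 (0.125), control 49/52 (0.136), control 44/46 (0.216), WB1P 14 (0.0509) or WB1P-Myc 95 (0.0547), Cmpk2 without control 49/52 (0.0999) or control 44/46 (0.200) and Bst2 without control 44/46 (0.0819). In WB1P CAFs Zbp1 lost it without WB1P 93 (0.0908) or WB1P 14 (0.0787), Oas1a without WB1P 93 (0.0802), WB1P 12 (0.0602) or WB1P 14 (0.0673), Mx1 without WB1P 14 (0.0533) or WB1P 35 (0.0604), Ifi44 without WB1P 12 (0.106), WB1P 14 (0.108) or WB1P 35 (0.154) and Ifit2 without WB1P 12 (0.154), WB1P 14 (0.121) or WB1P 35 (0.0783). There Trim25 lost it without WB1P 93 (0.0540), WB1P 12 (0.212), WB1P 14 (0.0946) or WB1P-Myc 69 (0.0509), and Ifit3b without control 82/83 (0.0562), WB1P 93 (0.0537), WB1P 12 (0.129), WB1P 14 (0.0942), WB1P 35 (0.151), WB1P-Myc 67 (0.0534) or WB1P-Myc 95 (0.0546). In WB1P-Myc CAFs Oas1a lost it without WB1P-Myc 21 (0.0570), Oas2 without WB1P-Myc 21 (0.0775) or WB1P-Myc 95 (0.0668), Usp18 without WB1P-Myc 21 (0.117), WB1P-Myc 67 (0.0838) or WB1P-Myc 69 (0.0672) and Gbp2 without control 82/83 (0.0639), WB1P 93 (0.0579), WB1P 14 (0.0559), WB1P 35 (0.0597), WB1P-Myc 21 (0.0754), WB1P-Myc 67 (0.144), WB1P-Myc 95 (0.0785) or WB1P-Myc 23 (0.172). Whether the CD26 effect differs between groups of mice was tested in the same paired fit after the data were seen. Between WB1P CAFs and NFs 1 member passed (5.14% of all genes), Usp18, whose CD26 effect was smaller in WB1P CAFs (−2.15 ± 0.50, FDR 0.0274), and it lost this call without control 49/52 (0.0907), control 44/46 (0.129), WB1P 12 (0.0640), WB1P 14 (0.0620) or WB1P 35 (0.0632). Between WB1P-Myc CAFs and NFs 0 passed (3.16%), and between the models 0 passed (0%). Members with an unadjusted p under 0.05 numbered 8, 8 and 1 (20.7%, 17.5% and 8.42% of all genes).

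By the En1 lineage mark the list mean differed little. In 19 pairs of libraries of the same mouse and CD26 class, the list mean of marked minus unmarked cells lay between −0.32 and 0.40 log2 units with a median of −0.04. It was above 0 in 7 of 19 pairs and within 0.5 in 19 of 19.

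Compared per kb of transcript, so that genes of different length can be ranked, Bst2 had the highest median over the 25 sums (79.3 CPM per kb), followed by Irf1 (49.2), Isg15 (47.0), Gbp2 (37.8) and Irf7 (19.6), and Oas3 had the lowest (0.395). The 5 lowest members, Oas3, Mx1, Ifit3b, Cmpk2 and Ifi44, had medians of 0.0205, 0.0700, 0.344, 0.596 and 0.0486 CPM per kb in CD26− NFs. In WB1P CD26− CAFs their medians were 0.527, 1.27, 1.93, 0.800 and 3.21 CPM per kb. The order differed between groups. Irf1 was first in NFs (64.1 CPM per kb in CD26− and 89.6 in CD26+ cells, where Bst2 had 12.3 and 26.3), Isg15 was first in WB1P CD26− CAFs (92.8, with Bst2 at 86.2 and Irf1 at 43.1), and Bst2 was first in the other CAFs.

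Several members lie in clusters of related genes on the GRCm38 build. The 4 Ifit genes are on chromosome 19, with Ifit1 (ENSMUSG00000034459) at chr19:34640871-34650009, plus strand, and Ifit3 (ENSMUSG00000074896) at chr19:34583531-34588731, plus strand. All 5 OAS genes are on chromosome 5, among them Oas3 (ENSMUSG00000032661) at chr5:120753098-120777661, minus strand, and Oasl2 (ENSMUSG00000029561) at chr5:114896936-114912234, plus strand. Gbp2 (ENSMUSG00000028270, chr3:142620602-142638008, plus strand) and Gbp3 (ENSMUSG00000028268, chr3:142560026-142573209, plus strand) are neighbors of Gbp7 on chromosome 3, where Ifi44 (ENSMUSG00000028037, chr3:151730922-151749960, minus strand) also lies. Of the remaining named members, Zbp1 (ENSMUSG00000027514) is at chr2:173206612-173218923, minus strand, Irf7 (ENSMUSG00000025498) at chr7:141262706-141266481, minus strand, Bst2 (ENSMUSG00000046718) at chr8:71534255-71537456, minus strand, and Usp18 (ENSMUSG00000030107) at chr6:121245906-121270917, plus strand. Related copies make some counts uncertain. In the GENCODE transcripts, 55.4% of the 54-base windows of Oas1a also occur in Oas1g, 49.5% of those of Ifit3 occur in Ifit3b, and 43.2% of those of Ifit3b are shared, nearly all with Ifit3. Shares of at least 5% were also found for Gbp7 (12.4%), Igtp (11.0%), Ifi35 (9.91%), Irgm2 (7.26%) and Ifit1 (6.76%), and 27 members were under 5%. An exon of another gene overlaps 12 members, on the opposite strand for 7, Irf7, Irf1, Usp18 and Dhx58 among them. The library kit keeps the strand, and whether the counting used it was not given in the sources used here.

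Ligands were scarce. Ifnb1, the interferon most cell types make first, had 0 counts in all 6 NF sums, and in total 150 counts in 11 of 25 sums. In WB1P CD26− CAFs it had 1, 0, 0, 0 and 0 counts, in WB1P CD26+ CAFs 5, 1, 7 and 1, in WB1P-Myc CD26− CAFs 0, 0, 5, 1 and 36 and in WB1P-Myc CD26+ CAFs 1, 0, 18, 0 and 74. The counts were thus highest in mice 69 and 95, which also had the highest list means. Against a floor of 3 counts per NF sum, which covers counting error only, Ifnb1 was at least 8.71-fold higher in the mean of WB1P-Myc CD26+ CAFs (0.954 CPM, floor 0.110 CPM, edgeR FDR 0.0281). This rests largely on mouse 69: without it the mean of CD26+ CAFs was 0.352 CPM, at least 3.21-fold higher, and rested on the 18 counts of mouse 95. Without mouse 69 Ifnb1 was also too low to be tested. It thus passed the expression filter only through a mouse where it is high, so the FDRs of Ifnb1 are no support for a difference. WB1P-Myc CD26− CAFs had no FDR under 0.05 (0.0652), with a mean of 0.406 CPM that without mouse 69 was 0.0968 CPM, under the floor of 0.106 CPM. The call in CD26+ CAFs was lost without control 82/83 (0.0679), control 49/52 (0.0738) or control 44/46 (0.0852), over a range of 0.00966 to 0.0852 in 14 settings. Of the other ligands, Ifna4 had 11 counts in 5 sums, Ifng 5 counts in 5 sums, Ifnk and Ifnl3 1 count each, and Ifna1, Ifna2, Ifne and Ifnl2 were listed at 0 in all sums, so only 1 of 9 ligands could be tested.

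Of the receptor genes, Il10rb, a chain of the interferon lambda receptor, was higher in all 4 comparisons of CAFs with NFs, and Ifngr1, a chain of the interferon gamma receptor, was lower in CD26− CAFs, with log2 fold changes of −0.69 ± 0.14 (FDR 0.000536) and −0.42 ± 0.14 (FDR 0.0209). Of 9 upstream sensing genes, 1 was higher in each of the 4 comparisons, Sting1, an adaptor for cytosolic DNA sensing, and 3, 1, 0 and 1 were lower. With 17.4% to 19.1% of all genes higher and 16.1% to 17.8% lower, these counts set the sensing genes little apart. Cgas, the enzyme that activates STING, was lower in WB1P CD26− CAFs (−1.06 ± 0.35, edgeR FDR 0.0219, lost without control 82/83 (0.0587) or control 49/52 (0.114), range 0.000691 to 0.114). Among 6 negative regulators, 5 could be tested, and 0, 0, 1 and 1 were higher. That gene was Socs1, an inhibitor of Jak kinases, in CD26+ CAFs (1.61 ± 0.38, FDR 0.00325, and 1.16 ± 0.36, FDR 0.0178). Of 33 other interferon-induced genes, 7, 10, 8 and 12 were higher and 0 lower, with median log2 fold changes of 0.94, 1.05, 0.70 and 0.93. For WB1P the counts of 7 and 8 are near the shares of all genes called higher (17.6% and 17.4%).

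After group means were removed, 34 of 35 members had a correlation above 0.8 with the list mean over the 25 sums, up to 0.981. Irf1 had the lowest at 0.407. The list mean holds all 35 members, so each gene is correlated in part with itself. The 12 mice with both classes enter these sums as pairs, and these values describe how mice differ within groups. Of 16566 other genes, those most like the list mean were Rtp4 (r = 0.973), Phf11d (0.972), Sp100 (0.967), Sp110 (0.961), Oas1b (0.948), Parp9 (0.947), Tor3a (0.946), Ly6e (0.945), Dtx3l (0.945) and Trim30a (0.943). Of these 10, Rtp4, Sp100, Parp9, Dtx3l and Trim30a were already on the list of other interferon-induced genes.

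Promoters of members that move together can be searched for the letters that interferon-activated factors bind. RefSeq promoters (GRCm38.p6, from 250 bases before the gene start to 50 after it) were at hand for 28 of 35 members, as 32 promoters. Dhx58, Mx1, Mx2, Oas2, Usp18, Zbp1 and Parp14 had no entry. The core of the interferon-stimulated response element, GAAANNGAA on either strand, was found in 19 of 32 member promoters (59.4%) and in 2812 of all 32851 promoters (8.56%). The core of the gamma-activated site, TTCNNNGAA, was found in 8 of 32 (25.0%) and in 2726 of all (8.30%). Promoters of Ifi44 (chr3:151749861-151750160, minus strand), Oas3 (chr5:120777610-120777909, minus strand), Rsad2 (chr12:26456403-26456702, minus strand) and Oas1a (chr5:120907476-120907775, minus strand) are shown, because these are the called members of largest fold change whose promoter holds a match, each as 300 bases from 5′ to 3′ on the strand of the gene with the response element core in capitals. Ifi44 and Rsad2 hold 1 match, Oas3 and Oas1a hold 2 that overlap, and Oas1a also holds 1 match to the gamma-activated site, apart from these. A match of letters is a description and not a binding site.
Ifi44: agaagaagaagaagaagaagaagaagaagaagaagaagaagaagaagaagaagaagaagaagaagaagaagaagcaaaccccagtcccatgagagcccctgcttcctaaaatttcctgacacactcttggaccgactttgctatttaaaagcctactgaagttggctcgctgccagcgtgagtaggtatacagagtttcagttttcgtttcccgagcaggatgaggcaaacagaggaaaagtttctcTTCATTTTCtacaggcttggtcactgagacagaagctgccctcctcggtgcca
Oas3: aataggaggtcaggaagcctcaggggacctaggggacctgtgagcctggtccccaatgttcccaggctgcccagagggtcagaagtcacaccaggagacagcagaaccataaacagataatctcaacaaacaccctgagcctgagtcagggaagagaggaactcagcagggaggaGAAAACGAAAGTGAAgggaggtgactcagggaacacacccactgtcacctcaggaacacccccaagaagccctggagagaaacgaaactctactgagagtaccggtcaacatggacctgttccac
Rsad2: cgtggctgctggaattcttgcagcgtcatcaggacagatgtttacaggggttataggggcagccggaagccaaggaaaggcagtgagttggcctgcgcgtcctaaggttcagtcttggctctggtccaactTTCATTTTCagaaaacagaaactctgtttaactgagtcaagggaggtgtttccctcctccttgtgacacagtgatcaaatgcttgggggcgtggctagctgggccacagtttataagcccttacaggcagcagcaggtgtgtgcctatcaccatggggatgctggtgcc
Oas1a: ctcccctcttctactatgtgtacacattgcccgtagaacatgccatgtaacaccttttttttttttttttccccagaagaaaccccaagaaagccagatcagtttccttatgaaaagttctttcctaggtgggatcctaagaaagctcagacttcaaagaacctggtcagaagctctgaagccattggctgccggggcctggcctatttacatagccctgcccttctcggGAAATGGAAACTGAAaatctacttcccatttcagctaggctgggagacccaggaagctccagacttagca

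Markers of other cells were measured in the same sums, since the sort removed EpCAM, CD49f, CD31 and CD45 positive cells and could leave some. The 12 immune markers summed to 24.4, 34.6 and 30.1 CPM in CD26− NFs, 26.3, 85.3, 28.1, 32.0 and 175 CPM in WB1P and 156, 28.1, 164, 89.8 and 86.7 CPM in WB1P-Myc CD26− CAFs. In CD26+ cells they summed to 34.7, 29.9 and 22.8 CPM in NFs, 155, 91.2, 76.0 and 94.3 CPM in WB1P and 110.3, 22.5, 85.7, 266 and 41.4 CPM in WB1P-Myc CAFs. The most abundant were Cd74 in most CD26− sums (up to 96.4 CPM, mouse 35) and Cd3e in most CD26+ sums (up to 221.4 CPM, mouse 23), and Siglech, Adgre1 or Fcgr1 were at 0 in some sums. Without Cd3e the immune sums of CD26+ cells were 12.2, 18.4 and 17.9 CPM in NFs, 25.1, 31.5, 33.7 and 56.9 CPM in WB1P and 38.7, 12.3, 46.6, 45.0 and 28.3 CPM in WB1P-Myc CAFs. Pericyte markers (5 genes, led by Rgs5 in CD26− CAFs and by Abcc9 or Notch3 elsewhere) summed to 193, 361 and 204 CPM in CD26− NFs, 4516, 1807, 1833, 1558 and 2117 CPM in WB1P and 8050, 2654, 3631, 3377 and 2099 CPM in WB1P-Myc CD26− CAFs. In the CD26+ class the pericyte sums were 162, 187 and 177 CPM in NFs, 389, 172, 165 and 288 CPM in WB1P and 266, 289.8, 189, 146 and 269.5 CPM in WB1P-Myc CAFs.

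Proliferation markers (4 genes, led by Top2a or Mki67) summed to 35.4, 4.74 and 40.7 CPM in CD26− NFs and 91.8, 3.40 and 67.9 CPM in CD26+ NFs and to between 123.9 and 346 CPM in CAFs. The 9 genes of the response to tissue dissociation, led by Egr1 or Fosb, summed to 6849, 18410 and 12100 CPM in CD26− NFs and 6815, 13980 and 11760 CPM in CD26+ NFs and to between 4763 and 11800 CPM in CAFs. Control 49/52, with the highest members among NFs, thus had the lowest proliferation markers and the highest dissociation genes of all sums. The 5 endothelial markers, led by Kdr, Pecam1 or Emcn, summed to between 8.20 and 71.8 CPM, with Cdh5, Emcn and Tie1 at 0 in the CD26+ cells of mouse 12. The 6 epithelial markers, led by Krt8, Krt18 or Epcam, summed to between 0.364 and 167.9 CPM, the lowest in the CD26+ cells of mouse 69, with Krt5, Krt14 or Epcam at 0 in some sums. Against NFs, in the order WB1P CD26−, WB1P-Myc CD26−, WB1P CD26+ and WB1P-Myc CD26+, 3, 6, 2 and 3 of 11 tested immune markers were higher and 0, 0, 1 and 2 lower, and 5, 5, 2 and 1 of 5 pericyte markers were higher and 0, 0, 1 and 1 lower. All 4 proliferation markers were higher in each, 2, 2, 0 and 1 of the 9 dissociation genes were lower and 0 higher, and 3, 1, 3 and 3 of the 5 endothelial markers were lower and 1, 1, 0 and 0 higher. No epithelial marker was called, and of the 6 fibroblast markers 1, 0, 1 and 1 were higher and 3, 3, 1 and 0 lower. The part of these markers in the results on the members was not tested.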

How the data were processed

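The deposited table holds raw counts per gene and library, which the authors made by aligning reads with HISAT2 2.2.1 to GRCm38 per their processing notes; the counting program and its annotation release were not given in the sources used here. Of its 55487 lines 1 lacks a gene name, and its counts are 0 throughout. The 44 libraries came from 13 mice and had a median depth of 13718887 counts in 12 control, 12908654 in 16 WB1P and 12430100 in 16 WB1P-Myc libraries. Libraries of a mouse were summed by CD26 class (En1+ with the cells that carry neither mark, and CD26+ with the cells that carry both), which gave 25 sums in 6 groups. Some sums held only 1 library: CD26− of WB1P 10 and WB1P-Myc 21, CD26+ of WB1P 12 and WB1P-Myc 67, and both of WB1P-Myc 95. The sums thus differ in their make-up by the En1 mark. No library repeats another: over all 946 pairs of the 44 libraries the lowest chi-square per degree of freedom was 2.86, where a repeat would give about 1.

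All 25 sums were fitted together by group in edgeR 4.0.16 (R 4.3.3, limma 3.58.1) with its expression filter, TMM scaling, quasi-likelihood F tests and Benjamini-Hochberg adjustment over the 16601 genes tested. Calls mean an FDR under 0.05. CPM used the full library size times the TMM factor, and log2 CPM a prior count of 2. For 12 mice with both CD26 classes, deviations from the group means of the 2 sums correlated at 0.237 to 0.668 (median 0.444); both come from 1 animal, so the mouse was also fitted as a block, as a paired alternative. Differences of the CD26 effect between groups of mice, and each mouse left out, were added to that fit after seeing the data. Other alternatives were DESeq2 1.42.0, its size factors in edgeR, no filter, only the groups compared, single libraries as samples, leaving out the mice marked 8x8 or each mouse in turn, and, for the list mean, other prior counts, other scaling and each role alone.

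The members and lists were chosen with earlier results of these data known. Levels in every mouse are given for the member of each role with the highest mean CPM and for the one with the largest called fold change; other members and genes singled out in the text were chosen after their values were seen. Gene models were those of GENCODE M21 on GRCm38, matched by gene ID for 35 of 35 members, 34 of them with the same start and end as in the table (Isg15 differs). Sting1 and Cgas were listed under their former symbols Tmem173 and Mb21d1. Python 3.11.15, pandas 2.3.3 and matplotlib 3.10.9 made the tables and figures.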

Additional observations from a re-analysis of the deposited data

Results flagged for a closer look

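Selected genes were searched for a mouse far from the others of its group, in 68 groups of values (1 gene in 1 group of mice each). The rule picks about 1 in 20 by chance, so 3.4 were expected and 10 were found. The members vary together and the classes share mice. These groups of values are thus not independent, and 10 cannot be weighed against 3.4. WB1P-Myc mouse 69 made up 5 of the 10. In its CD26+ cells Ifit3 was at 92.7 CPM (nearest other mouse 15.5), Oas3 at 59.3 CPM (10.6) and Ifi44 at 92.2 CPM (19.9), and in its CD26− cells Oas3 was at 40.0 CPM (8.32) and Ifnb1 at 1.64 CPM (0.350). WB1P mouse 93 had Irf7 at 151.3 CPM (75.5) and Ifi44 at 16.4 CPM (7.34) in CD26+ cells. In WB1P CD26+ cells mouse 14 had Ifit1 at 16.3 CPM, below the others (37.3), and in WB1P CD26− cells mouse 12 had Ifit3 at 12.3 CPM (7.59) and mouse 10 had Ifnb1 at 0.0775 CPM (0 in the others), which is 1 count. The causes were not tested.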

How the results depend on the processing

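Of the log2 fold changes of named genes over all settings 499 kept their side of the FDR limit, 99 lost a call, 5 gained one and 0 reversed. List mean differences between tumor models or CD26 classes lay near 0, and all of these changed sign in some setting. WB1P-Myc against WB1P was −0.07 in CD26− and 0.13 in CD26+ CAFs, and ran from −0.48 to 0.29 and from −0.42 to 0.54 with single mice left out, and was −0.69 and −0.50 without the mice marked 8x8. CD26+ against CD26− was 0.35 in NFs (−0.26 for the GTPases alone), −0.21 in WB1P CAFs (0.26 for the OAS family alone) and 0.00 in WB1P-Myc CAFs (−0.15 to 0.13 with single mice left out). Of the counts and list means over all settings 578 stayed near the value reported (within 1.5 times for a count, within 1 pooled SD of the mice for a list mean), 302 of them counts of 0 in both, and 52 moved further. Without a low-count filter WB1P CD26+ CAFs had 5 higher members. With only the groups compared in the fit they had 18, WB1P-Myc CD26+ CAFs had 9, and CD26+ against CD26− WB1P CAFs had 2 higher and 4 lower. With single libraries as samples, which counts a mouse more than once, WB1P CD26+ CAFs had 15 higher and 1 lower, WB1P CD26− CAFs 2 lower, WB1P-Myc CD26+ CAFs 1 lower, CD26+ NFs 3 higher than CD26− NFs, and CD26+ WB1P CAFs 1 lower than CD26− ones. Counts of members are given here without the shares of all genes, and show only how the calls moved. Without the mice marked 8x8, WB1P-Myc CAFs had 11 (CD26−) and 6 (CD26+) higher members and WB1P CD26+ CAFs 1 lower. With the mouse as a block, the paired comparison of CD26+ with CD26− cells gave 6 higher members in NFs, 3 higher and 5 lower in WB1P and 5 higher and 2 lower in WB1P-Myc CAFs. It was fitted for these comparisons and, after seeing the data, for differences of the CD26 effect between groups of mice, where 1 member was called between WB1P CAFs and NFs.

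With each mouse left out in turn, higher members numbered 3 to 17 (WB1P CD26−), 7 to 20 (WB1P-Myc CD26−), 0 to 12 (WB1P CD26+) and 5 to 21 (WB1P-Myc CD26+), and lower members 0 to 1 in both WB1P comparisons. The share of all genes called higher changed too with the mouse left out, so these counts show only how the calls moved. By role alone the list mean differed from CD26− NFs by 3.22 (WB1P) and 3.19 (WB1P-Myc) for the OAS family, and for WB1P by 0.49 for the transcription factors and 0.62 for the GTPases. In WB1P CD26+ CAFs the role differences were 2.39 for the OAS family, 0.24 for the transcription factors and 0.49 for the GTPases. Between CD26+ and CD26− cells they were 1.09 for the OAS family in NFs, and 0.15 for the sensors, −0.61 for the Ifit genes and 0.26 for the OAS family in WB1P CAFs. The causes were not tested, beyond fewer mice in the fits that leave some out.

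With 3 control mice, of which 49/52 stood apart from the others, and with WB1P-Myc mice that differ widely, a member without a call cannot be taken as unchanged. Oas3, Ifi44 and Mx1, among others, have few counts in controls, so that their fold changes are imprecise. Whether the controls are pools of animals, and the batch and measured size of each tumor, were not given per mouse in the sources used here, and their part was not tested. The paper gives end-stage size for both models. The mark on mice 23 and 69 does not match that size.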

Other observations

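Among the 33 other interferon-induced genes, Ifitm3, Eif2ak2, Ube2l6 and Lgals3bp were higher in CAFs in all 4 comparisons with NFs, and the chemokine gene Cxcl10 in WB1P-Myc CAFs of both classes and in WB1P CD26+ CAFs. Of all 16601 genes 8.06% were called higher in all 4, and the comparisons share their controls, so these calls set the list little apart. The restriction factor gene Ifitm1 was lower in CD26+ than in CD26− cells of NFs, WB1P CAFs and WB1P-Myc CAFs, with log2 fold changes of −2.42, −2.40 and −3.66 (edgeR FDR under 0.05 in each).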
